A study of Mus musculus with 6 samples.

Results

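The genes described here are 39 WNT pathway genes among the 750 tumour-related genes measured in this series. They are the rows of the table whose symbol starts with Wnt, Fzd, Dkk, Sfrp, Axin or Tcf7, together with Nkd1, Wif1, Lef1, Apc, Ctnnb1, Rnf43, Cxxc4, Gsk3b and Sost. By role they are 15 WNT ligands, 6 Frizzled receptors, 8 secreted antagonists, 5 genes of beta-catenin and the complex that degrades it, 2 nuclear factors and 3 feedback inhibitors. No symbol starting with Tcf7 other than Tcf7l1 was among the rows. RNA came from 6 mammary tumours of female mice, each grown from 300000 implanted 4T1 cells, a mouse mammary carcinoma line. In 3 of them the mice received TTFM, extracts of a Thai traditional formulary medicine, starting 2 weeks after implantation, and 3 tumours are labelled Saline. All 6 therefore share the implanted line and site, and each is a mixture of 4T1 cells and host cells. The sources used here do not state mouse strain, age, dose, composition or length of treatment. Tumours are numbered in the labels without saying that each came from its own mouse. The p-values therefore measure the spread between these samples, which may be partly technical. TTFM replicates 1 and 2 were the most alike pair, with a chi-square of count differences per degree of freedom of 7.52. The next pair, Saline replicate 2 and TTFM replicate 2, had 19.3. TTFM replicate 3 had 60.5 against TTFM replicate 1 and 55.0 against TTFM replicate 2. Whether TTFM replicates 1 and 2 came from separate mice is not stated.

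WNT proteins are secreted lipid-modified ligands that bind Frizzled receptors. In the canonical branch, binding stops a complex built on Apc and Axin, with the kinase Gsk3b, from marking beta-catenin for degradation, and beta-catenin then joins TCF and LEF factors at target genes. Axin2, Nkd1, Rnf43, Dkk1 and Lef1 are among the genes that this branch is known to induce, and the products of the first 4 of them restrain the pathway. In the non-canonical branches, ligands such as Wnt5a and Wnt11 act through JNK and calcium signals. In the mammary gland, WNT signals take part in duct growth and stem cell upkeep, and Wnt1 was identified as a mammary oncogene in mice.

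Total counts ran from 333515 to 449460 in TTFM tumours and from 400274 to 422841 in Saline tumours, and the 39 genes held 1.85% to 2.16% and 1.76% to 2.34% of them. Many of these genes lay near the bottom of the measuring range. The Y-linked gene Uty, which female tumours should lack, had counts of 6, 12 and 4 in TTFM replicates 1 to 3 and 7, 5 and 8 in Saline replicates 1 to 3. Of the 39 genes, 17 exceeded the highest Uty count, 12, in every tumour, against 524 of all 750 genes, and 23 had a mean count under 20, against 209 of 750. Mean counts reached 50 or more in 15. The defining epithelial genes Cdh1, Erbb2, Erbb3, Itgb4 and Lama5, 5 of a list of 11, were well above this range in every tumour, with Cdh1 at 1697, 1744 and 1082 in TTFM replicates 1 to 3, against 1032, 1334 and 1662 in Saline replicates 1 to 3 (normalized counts). Tumours differed widely in fibroblast and extracellular matrix genes. The 8 such markers in the table, of 14 listed, had summed normalized counts of 17968, 25017 and 16997 in TTFM replicates 1 to 3, against 7889, 39685 and 2943 in Saline replicates 1 to 3, so Saline replicate 2 had the highest and Saline replicate 3 the lowest sum.

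**Figure D1:**
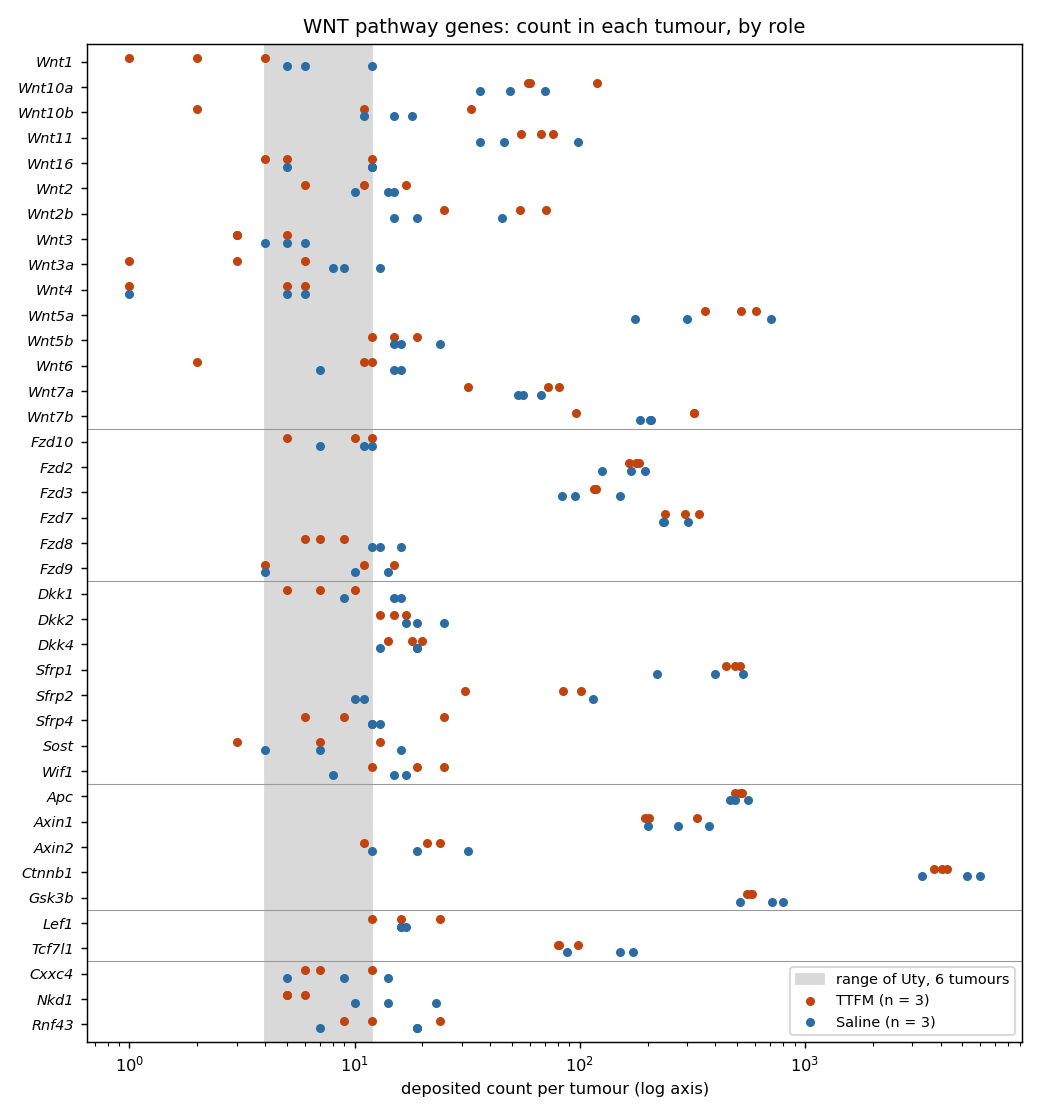
Deposited count of each of the 39 WNT pathway genes in each tumour on a log axis, grouped by role from ligands at the top to feedback inhibitors at the bottom. Red points are the 3 TTFM tumours, blue points the 3 Saline tumours, and the grey band is the range of Uty (4 to 12 counts). The 23 genes with a mean count under 20 lie in or next to the band, while Wnt5a, Wnt7b, Sfrp1, Fzd2, Fzd7, Apc, Axin1, Gsk3b and Ctnnb1 lie well to its right.

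Promoters are shown for Nkd1 and Dkk1, pathway-induced genes whose values did not overlap between the groups, and for Sfrp2, Wnt2b and Wnt11, which varied across tumours much as the matrix genes did. RefSeq windows (build GRCm38.p6) from 250 bases before to 50 bases after a gene's start were at hand for 28 of the 39 genes, in 36 windows. They were searched on both strands for CTTTGAA and CTTTGAT, forms of the TCF and LEF recognition motif, which cannot both match at the same position, and matches are in capitals. The motif was in 3 of the 36 windows (8.33%), that of Dkk1, 1 of 2 windows of Wnt11 and 1 of 3 windows of Wnt5b. It was in 8.65% of all 32851 windows and in 5.71% of the 735 windows of the measured genes, the 36 included. For Wnt11 the window with the match is shown. In Dkk1 the match starts 117 bases upstream of the start, and in Wnt11, where it reads on the opposite strand, 51 bases upstream. The windows lie at chr8:88527383-88527682, plus strand (Nkd1), chr19:30549447-30549746, minus strand (Dkk1), chr3:83766071-83766370, plus strand (Sfrp2), chr3:104961660-104961959, minus strand (Wnt2b) and chr7:98834862-98835161, plus strand (Wnt11, 1 of 2 windows), each printed 5′ to 3′ on the gene's strand.
Nkd1: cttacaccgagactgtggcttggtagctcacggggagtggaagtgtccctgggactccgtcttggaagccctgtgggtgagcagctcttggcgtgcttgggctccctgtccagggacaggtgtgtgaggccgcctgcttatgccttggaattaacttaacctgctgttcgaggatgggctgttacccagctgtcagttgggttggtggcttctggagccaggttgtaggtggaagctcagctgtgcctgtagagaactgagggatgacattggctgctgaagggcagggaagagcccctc
Dkk1: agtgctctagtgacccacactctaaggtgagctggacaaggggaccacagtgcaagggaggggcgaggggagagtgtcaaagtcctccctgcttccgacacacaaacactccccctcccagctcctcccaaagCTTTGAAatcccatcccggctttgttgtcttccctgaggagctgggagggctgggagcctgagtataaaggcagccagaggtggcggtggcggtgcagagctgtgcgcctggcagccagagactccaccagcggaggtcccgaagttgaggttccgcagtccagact
Sfrp2: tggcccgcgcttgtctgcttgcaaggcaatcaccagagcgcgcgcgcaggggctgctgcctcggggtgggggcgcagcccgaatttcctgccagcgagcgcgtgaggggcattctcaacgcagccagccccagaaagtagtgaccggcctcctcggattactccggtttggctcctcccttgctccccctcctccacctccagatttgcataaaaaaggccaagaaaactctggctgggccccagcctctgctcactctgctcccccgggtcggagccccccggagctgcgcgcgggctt
Wnt2b: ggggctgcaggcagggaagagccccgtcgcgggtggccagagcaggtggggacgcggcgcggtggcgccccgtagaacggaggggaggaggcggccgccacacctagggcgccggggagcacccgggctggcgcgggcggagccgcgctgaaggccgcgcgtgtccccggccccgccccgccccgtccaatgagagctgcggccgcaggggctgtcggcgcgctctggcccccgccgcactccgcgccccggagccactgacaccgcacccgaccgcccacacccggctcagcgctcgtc
Wnt11: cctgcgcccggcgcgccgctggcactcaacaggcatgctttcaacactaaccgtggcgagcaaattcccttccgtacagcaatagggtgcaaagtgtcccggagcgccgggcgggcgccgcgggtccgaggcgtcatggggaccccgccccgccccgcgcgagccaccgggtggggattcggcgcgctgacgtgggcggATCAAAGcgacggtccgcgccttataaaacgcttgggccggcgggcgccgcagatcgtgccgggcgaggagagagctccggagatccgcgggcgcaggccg
A match is only a description of these letters, and its absence from the Nkd1, Sfrp2 and Wnt2b windows says only that the letters are not in these windows. The windows of Wnt2b and Wnt11 were 79.7% and 71.3% G and C, and that of Nkd1 58.3%.

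The comparison asks how TTFM tumours differed from Saline tumours. Genes were tested where the mean count reached 10, which held for 30 of the 39. None of these 30 passed edgeR's quasi-likelihood test after Benjamini-Hochberg adjustment over all 627 tested genes, of which 0% were called. At an unadjusted p under 0.05 in the same test there were 2 of the 30, Nkd1 and Fzd8, against 6.06% of all tested genes. Both were lower in TTFM tumours, against 4.47% of all tested genes, and 0 were higher, against 1.59%. DESeq2 and limma with trend also called 0 of the 30 after adjustment. At an unadjusted p under 0.05 they gave 1 (Nkd1) and 2 (Nkd1 and Fzd8), against 6.38% and 5.26% of all tested genes. With no filter on low values, Fzd8 was no longer among them (edgeR unadjusted p = 0.0685). Wnt1 and Wnt3a then joined Nkd1 (edgeR unadjusted p = 0.0314 and 0.0387). That made 3 of all 39 lower and 0 higher, against 6% of the 750 genes in either direction. The median log2 fold change, TTFM over Saline, was 0.12 over the 30, against -0.0014 over all tested genes, and 18 were positive and 12 negative. It moved to 0.024 without Saline replicate 3. The median SE of a log2 fold change over all tested genes was 0.32, which sets the size of difference that these 6 tumours can show.

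**Figure D2:**
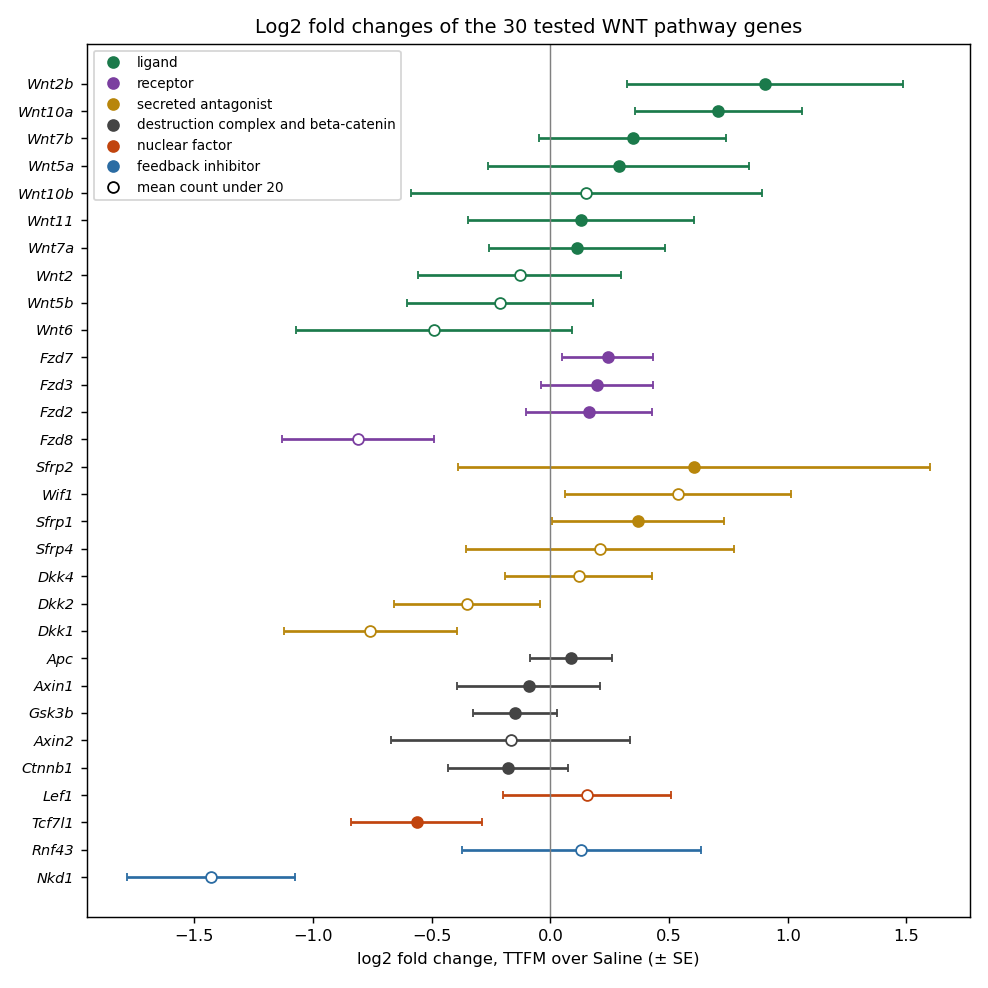
Log2 fold change, TTFM over Saline, with its SE for each of the 30 tested WNT pathway genes, coloured by role and ordered by size within a role. Open points are genes with a mean count under 20. Nkd1 at -1.43 and Fzd8 at -0.81 lie lowest, both as open points, and Wnt2b at 0.90 and Wnt10a at 0.71 lie highest.

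Among the ligands, those with high counts varied widely among tumours of 1 group, and none passed the test. Of the 15 ligands 10 were tested, 7 with positive and 3 with negative log2 fold changes (median 0.14). Wnt5a, the best known ligand of the non-canonical branches, had 513, 606 and 399.6 in TTFM replicates 1 to 3, against 287, 807 and 151 in Saline replicates 1 to 3 (normalized counts). The 2 most extreme tumours were both Saline, replicate 2 at the top and replicate 3 at the bottom, and the TTFM values lay between them. Group means were 506 ± 103 in TTFM and 415 ± 346 in Saline tumours (SD, n = 3 each), with a log2 fold change of 0.29 (SE 0.55; edgeR adjusted p = 0.962), which became 1.21 without Saline replicate 2 and -0.089 without Saline replicate 3. Wnt11, also a mainly non-canonical ligand, had 74.6, 67.1 and 61.1 in TTFM replicates 1 to 3, against 44.3, 111 and 30.9 in Saline replicates 1 to 3. Saline replicate 2 was again the highest tumour and the groups overlapped fully (log2 fold change 0.13, SE 0.48). It was -0.17 when Saline replicate 3 was left out and 0.85 when Saline replicate 2 was. Wnt2b, a canonical ligand with a mean count of 38.2 described here after its values were seen, had 53.0, 71.1 and 27.8 in TTFM replicates 1 to 3, against 18.3, 51.2 and 12.9 in Saline replicates 1 to 3. Saline replicates 1 and 3 were its lowest tumours and TTFM replicate 2 its highest. Its log2 fold change of 0.90 (SE 0.58; edgeR adjusted p = 0.916) was the most positive of the 30, and it was 0.57 when Saline replicate 3 was left out and 1.70 when Saline replicate 2 was.

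Wnt7b and Wnt7a, paralogous ligands, shared another pattern. Wnt7b had 314, 323 and 107 in TTFM replicates 1 to 3, against 199, 210.4 and 175 in Saline replicates 1 to 3. TTFM replicates 1 and 2 lay above every Saline tumour and TTFM replicate 3 lay below them all, so the TTFM values spanned the Saline range from both sides. The means were 248 ± 122 in TTFM and 195 ± 18.0 in Saline tumours (SD, n = 3 each), and the log2 fold change of 0.35 (SE 0.39; edgeR adjusted p = 0.938) became 0.73 without TTFM replicate 3, 0.14 without TTFM replicate 1 and 0.11 without TTFM replicate 2. Wnt7a had 79.5, 72.1 and 35.5 in TTFM replicates 1 to 3, against 64.5, 63.7 and 45.5 in Saline replicates 1 to 3, again with TTFM replicates 1 and 2 highest and TTFM replicate 3 lowest (log2 fold change 0.11, SE 0.37). Of the epithelial markers, Itgb4, an integrin subunit of hemidesmosomes, was also lower in TTFM replicate 3 than in the other TTFM tumours (717, 914 and 461 in TTFM and 449, 632 and 443 in Saline tumours), while Erbb3 was higher there (194, 265 and 619 in TTFM and 465, 210.4 and 481 in Saline tumours). The part of these markers in the Wnt7b values was not tested.

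Wnt10a, a canonical ligand of epithelial tissues, had 117, 59.1 and 66.6 in TTFM replicates 1 to 3, against 47.2, 40.9 and 60.1 in Saline replicates 1 to 3. TTFM replicate 1 stood highest, and TTFM replicate 2 lay within the Saline range. Group means were 80.8 ± 31.4 in TTFM and 49.4 ± 9.77 in Saline tumours (SD, n = 3 each), and the log2 fold change of 0.71 (SE 0.35; edgeR adjusted p = 0.849) was 0.34 without TTFM replicate 1. The other 9 ligands had mean counts under 20. Of them Wnt10b, Wnt2, Wnt5b and Wnt6 were tested, with log2 fold changes of 0.15, -0.13, -0.21 and -0.49 and SEs of 0.74, 0.43, 0.39 and 0.58. Wnt1, Wnt3, Wnt3a, Wnt4 and Wnt16 had mean counts under 10 and were not tested. Wnt1 had counts of 1, 2 and 4 in TTFM replicates 1 to 3 and 6, 5 and 12 in Saline replicates 1 to 3, and Wnt3a had 3, 1 and 6 in TTFM replicates 1 to 3 and 9, 8 and 13 in Saline replicates 1 to 3. In both, every TTFM value lay below every Saline value after normalization, but Wnt1 exceeded the Uty count of its own tumour in 1 of 6 tumours and Wnt3a in 4 of 6. With no filter on low values, edgeR gave adjusted p-values of 0.673 and 0.735 for them. Wnt3 exceeded Uty in 0 tumours and Wnt4 in 1, and Wnt16 had a mean count of 8.33.

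Of the 6 receptors 4 were tested, 3 with positive and 1 with a negative log2 fold change (median 0.18). Fzd7, a Frizzled receptor linked to mammary stem cells and to basal-like breast cancer, had 333, 292 and 265 in TTFM replicates 1 to 3, against 226, 268 and 259 in Saline replicates 1 to 3. All but TTFM replicate 3 among the TTFM tumours lay above the Saline values, and the log2 fold change was 0.24 (SE 0.19; edgeR adjusted p = 0.938). Fzd2, a receptor of Wnt5a, had 163, 183 and 198 in TTFM replicates 1 to 3, against 187, 191 and 108 in Saline replicates 1 to 3, with Saline replicate 3 alone well below the rest. Its log2 fold change was 0.16 (SE 0.27) and -0.039 without Saline replicate 3. Fzd3, which acts in planar cell polarity, had 115, 116 and 131 in TTFM replicates 1 to 3, against 91.5, 94.4 and 129.7 in Saline replicates 1 to 3. The TTFM values lay within a narrow band and Saline replicate 3 was close to its upper end (log2 fold change 0.20, SE 0.24). Fzd8, Fzd9 and Fzd10 had mean counts of 10.5, 9.67 and 9.5, and Fzd8 was the only one of these tested. Its counts were 6, 9 and 7 in TTFM replicates 1 to 3 and 12, 13 and 16 in Saline replicates 1 to 3, so that the groups did not overlap. All its TTFM counts, and that of Saline replicate 1, lay within the Uty range of 4 to 12. Normalized means were 7.56 ± 1.57 in TTFM and 13.4 ± 1.65 in Saline tumours (SD, n = 3 each), with a log2 fold change of -0.81 (SE 0.32; edgeR unadjusted p = 0.0357, adjusted p = 0.719).

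Of the 8 secreted antagonists 7 were tested, 5 positive and 2 negative (median 0.21), and Sfrp1 and Sfrp2 alone had mean counts of 50 or more. Both encode Frizzled-related proteins, which can bind WNT ligands outside the cell. Sfrp1 had 436, 516 and 541 in TTFM replicates 1 to 3, against 212, 603 and 342 in Saline replicates 1 to 3. The TTFM tumours lay close together, while the Saline tumours held both the highest and the lowest value. Means were 497 ± 54.7 in TTFM and 385 ± 199 in Saline tumours (SD, n = 3 each), and the log2 fold change was 0.37 (SE 0.36; edgeR adjusted p = 0.938), 0.84 without Saline replicate 2 and 0.11 without Saline replicate 1. Sfrp2, a gene of mesenchymal cells, had 30.4, 101 and 93.2 in TTFM replicates 1 to 3, against 9.63, 131 and 9.45 in Saline replicates 1 to 3. Saline replicates 1 and 3 were near the level of Uty, with counts of 10 and 11, and the other Saline tumour was the highest of all 6. This was a 13.8-fold range between tumours, and the log2 fold change between groups was 0.61 with an SE of 0.99. It was 2.96 without Saline replicate 2 and 0.13 without Saline replicate 3.

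The remaining antagonists, Dkk1, Dkk2, Dkk4, Sfrp4, Wif1 and Sost, had mean counts of 8.33 to 17.7. Dkk1 encodes a secreted inhibitor of the LRP co-receptors. Its counts were 5, 10 and 7 in TTFM replicates 1 to 3 and 15, 9 and 16 in Saline replicates 1 to 3. All the TTFM counts of Dkk1, and that of Saline replicate 2, lay within the Uty range of 4 to 12. After normalization, the TTFM values of 4.91, 10.0 and 7.77 lay just below the Saline values of 14.4, 10.2 and 13.7 (log2 fold change -0.76, SE 0.36; edgeR adjusted p = 0.833). The nearest values of the groups, in TTFM replicate 2 and Saline replicate 2, came from counts of 10 and 9, so this separation rests on the scaling. Wif1, a WNT-binding inhibitor, stood at 0.54 (SE 0.48), Sfrp4 at 0.21 (SE 0.56), Dkk4 at 0.12 (SE 0.31) and Dkk2 at -0.35 (SE 0.31). Sost, with counts of 3 to 16, was not tested.

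**Figure D3:**
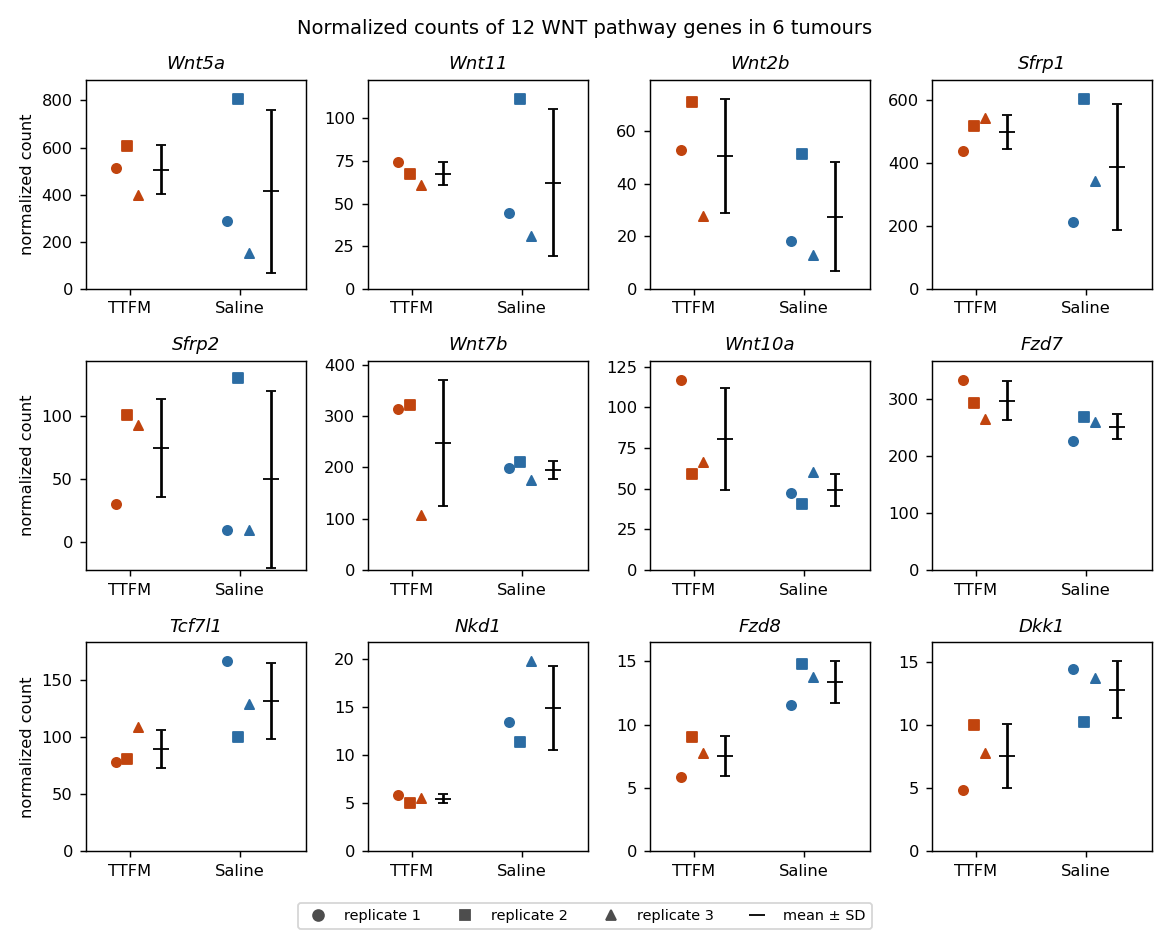
Normalized counts of 12 WNT pathway genes in each tumour, TTFM on the left and Saline on the right of each panel, with the mean and SD (n = 3) as bars and the replicate number as the marker shape. Saline replicate 2 (square) lies far above the other Saline tumours for Wnt5a, Wnt11, Wnt2b, Sfrp1 and Sfrp2, TTFM replicate 3 (triangle) lies lowest for Wnt7b, and the groups do not overlap for Nkd1, Fzd8 and Dkk1.

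All 5 genes of beta-catenin and its destruction complex were tested, 1 positive and 4 negative (median -0.15). Apc and Gsk3b were among the genes that differed least between tumours. Apc, the scaffold and tumour suppressor of the complex, had 515, 518 and 541 in TTFM replicates 1 to 3, against 471, 529.9 and 481 in Saline replicates 1 to 3. The highest and the lowest tumour differed by 1.15-fold, the 4th smallest range among the 447 genes whose mean count reached 50, where the median range was 1.87-fold. Gsk3b, the kinase that marks beta-catenin, had 570.5, 579 and 613 in TTFM replicates 1 to 3, against 685, 586 and 683 in Saline replicates 1 to 3, with a 1.2-fold range, 11th smallest of the 447. Their log2 fold changes were 0.086 (SE 0.17) and -0.15 (SE 0.18). Ctnnb1, which encodes beta-catenin itself, had 3990.4, 4285 and 4134 in TTFM replicates 1 to 3, against 5763, 3762 and 4521 in Saline replicates 1 to 3. Saline replicate 1 stood highest and Saline replicate 2 lowest, with the TTFM tumours between them (log2 fold change -0.18, SE 0.25). Axin1, the limiting scaffold, had 190.5, 202 and 369 in TTFM replicates 1 to 3, against 262, 227 and 320.3 in Saline replicates 1 to 3, where TTFM replicate 3 was highest and TTFM replicate 1 lowest (log2 fold change -0.091, SE 0.30). Without TTFM replicate 3 it stood at -0.44. Axin2, the pathway-induced scaffold, had counts of 24, 21 and 11 in TTFM replicates 1 to 3 and 19, 32 and 12 in Saline replicates 1 to 3. Saline replicate 2 was highest and Saline replicate 3 lowest after normalization, and the log2 fold change of -0.17 (SE 0.50) was 0.42 without Saline replicate 2. RNA level says nothing of the stability of beta-catenin protein, which was not measured.

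The nuclear factors in the table were Tcf7l1 and Lef1. Tcf7l1, known mainly as a repressor of WNT target genes, had 78.6, 81.1 and 109 in TTFM replicates 1 to 3, against 167, 100.1 and 129.7 in Saline replicates 1 to 3. TTFM replicates 1 and 2 were the lowest tumours, and TTFM replicate 3 lay just above Saline replicate 2. The means were 89.5 ± 16.8 in TTFM and 132 ± 33.3 in Saline tumours (SD, n = 3 each), with a log2 fold change of -0.56 (SE 0.28; edgeR adjusted p = 0.849), which was -0.33 without Saline replicate 1. Lef1, an activating partner of beta-catenin that T lymphocytes also express, had counts of 12, 24 and 16 in TTFM replicates 1 to 3 and 17, 16 and 16 in Saline replicates 1 to 3 and a log2 fold change of 0.15 (SE 0.35). The 5 T and NK cell genes in the table, of 12 listed, had summed normalized counts of 259, 146 and 557 in TTFM replicates 1 to 3, against 286, 250.2 and 299 in Saline replicates 1 to 3, and their part in the Lef1 values was not tested.

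Nkd1 had the smallest p of the 30 tested genes. It encodes a Dishevelled-binding inhibitor that canonical WNT signalling induces. Its deposited counts were 6, 5 and 5 in TTFM replicates 1 to 3 and 14, 10 and 23 in Saline replicates 1 to 3, so the groups did not overlap. Every TTFM count, and that of Saline replicate 2, lay within the Uty range of 4 to 12. Normalized means were 5.48 ± 0.445 in TTFM and 14.9 ± 4.36 in Saline tumours (SD, n = 3 each), with a log2 fold change of -1.43 (SE 0.35; edgeR unadjusted p = 0.00401, adjusted p = 0.525). It was -1.58 when Saline replicate 2 was left out and -1.15 when Saline replicate 3 was, and values under 20 raised to 20 gave -0.026. In that last setting every Nkd1 count except that of Saline replicate 3 became 20, so its value says little of the difference. Of the 3 feedback inhibitors 2 were tested, and the groups overlapped for the others. Rnf43, a ubiquitin ligase that removes Frizzled receptors, had counts of 12, 9 and 24 in TTFM replicates 1 to 3 and 19, 7 and 19 in Saline replicates 1 to 3 (log2 fold change 0.13, SE 0.50), and Cxxc4, an inhibitor that binds Dishevelled, had counts of 7, 6 and 12 in TTFM replicates 1 to 3 and 14, 5 and 9 in Saline replicates 1 to 3 and was not tested. Axin2, Dkk1 and Lef1, the other feedback or target genes named above, gave -0.17, -0.76 and 0.15.

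In all, 3 of the 30 tested genes, Nkd1, Fzd8 and Dkk1, did not overlap between the groups, against 8.29% of all tested genes. Each was lower in TTFM tumours, against 4.31% in that direction, and 0 were higher, against 3.99%. With Wnt1 and Wnt3a the count was 5 of all 39, against 8.67% of the 750 genes, all 5 lower (5.2% of the 750) and 0 higher (3.47%). All 5 had a mean count under 20. Among all 209 genes with such a mean, 8.61% did not overlap with TTFM lower and 0.478% with TTFM higher. Split by set, 5 of the 23 such WNT pathway genes (21.7%) and 13 of the 186 others (6.99%) did not overlap with TTFM lower. With no filter, the median log2 fold change was -0.061 over these 23 and -0.24 over the 186. For the 186, summed normalized counts were 1510.2, 1468 and 1747 in TTFM replicates 1 to 3, against 1937, 1714 and 1971 in Saline replicates 1 to 3. The 4 granulocyte marker genes in the table, of 8 listed, had summed normalized counts of 964, 825 and 592 in TTFM replicates 1 to 3, against 2649, 1505 and 3230.2 in Saline replicates 1 to 3, with no overlap. All 4 had negative log2 fold changes. Most of each sum came from the cytokine gene Il1b. Il1b had 803, 706 and 460 in TTFM replicates 1 to 3, against 2289, 1257 and 2603 in Saline replicates 1 to 3. Taken singly, Il1b and Il1r2 did not overlap between the groups, while Csf3r and Mpo overlapped. The part of the low-count genes or of the granulocyte genes in the values of Nkd1, Fzd8, Dkk1, Wnt1 and Wnt3a was not tested.

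Across tumours, and irrespective of group, Wnt5a followed the matrix genes. From high to low, the summed matrix markers ran Saline replicate 2, TTFM replicates 2, 1 and 3, then Saline replicates 1 and 3. Wnt5a had exactly this order, as did Col1a1, a chain of type I collagen (8646, 11537 and 6644 in TTFM replicates 1 to 3, against 4437, 18645 and 1516 in Saline replicates 1 to 3), and 4 of the 8 matrix markers in all, while Pdgfra matched in 8 of 15 pairs of tumours. Of the 619 tested genes outside the marker list, 7 (1.13%) had it. The markers are part of the sum that sets the order, Col1a1 a large part, so their own match is partly built in. Over the 15 pairs of tumours, Wnt11 and Sfrp2 matched the matrix order in 14, Wnt2b and Axin2 in 13 and Sfrp1 and Wnt5b in 12. A match of at least 14 pairs held for 3 of the 30 WNT pathway genes (10%) and for 36 of the 619 (5.82%). Shares over the 619 were not taken at 13 or 12 pairs, so the matches of Wnt2b, Axin2, Sfrp1 and Wnt5b have no background here. Ctnnb1, Rnf43 and Wnt6 matched in 3 pairs and Nkd1, Gsk3b and Tcf7l1 in 4. This comparison was chosen after the values were seen and has no test. The orders of Wnt5a, Wnt2b and Col1a1 were the same under all 5 scalings, including none. Under total count scaling the summed markers placed TTFM replicate 3 above TTFM replicate 1, and Wnt11 placed it above TTFM replicate 2. Sfrp1 and Sfrp2 also changed order between scalings, and Sfrp1 was highest in TTFM replicate 3 under total count scaling. The matching pairs were counted under TMM scaling only. In whole tumours, more cells of a type and more RNA per cell cannot be told apart.

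**Figure D4:**
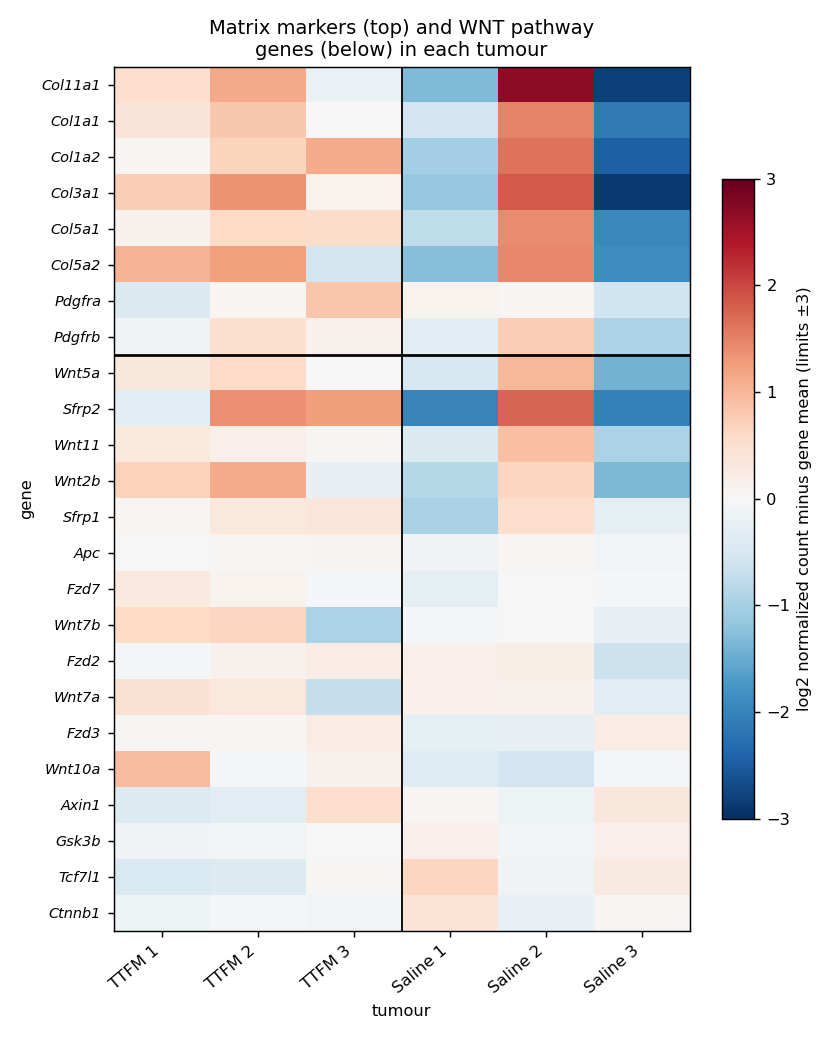
Log2 normalized count minus the gene's mean over 6 tumours, for 8 fibroblast and matrix markers above the line and the 16 WNT pathway genes whose mean count reached 20 below it, TTFM tumours on the left and Saline tumours on the right. WNT pathway genes are sorted by how many of 15 tumour pairs they share with the matrix order. Wnt5a, Sfrp2, Wnt11, Wnt2b and Sfrp1 are high in Saline replicate 2 and low in Saline replicates 1 and 3 like the collagen genes, with Sfrp1 nearer to its mean in Saline replicate 3, and Apc and Gsk3b are near 0 throughout.

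For Sfrp2, Wnt2b, Wnt5a, Wnt11 and Sfrp1 the comparison depended on Saline replicate 2. Without that tumour, Sfrp2 stood at 2.96 (SE 0.61), Wnt2b at 1.70 (SE 0.49), Wnt5a at 1.21 (SE 0.33), Wnt11 at 0.85 (SE 0.32) and Sfrp1 at 0.84 (SE 0.27), all at an unadjusted p under 0.05 in edgeR's test. They made up 5 of the 30 genes on the higher side, against 9.09% of all tested genes, and 2 of 30, Nkd1 and Tcf7l1, were on the lower side, against 9.73%. Saline replicate 2 was singled out from the tumours left out in turn. It was the highest Saline tumour for each of the 5 genes and the lowest for Nkd1 and Tcf7l1. Leaving it out by itself moves their fold changes away from 0, so these counts are only a description. None of the 30 passed after adjustment, with the smallest edgeR adjusted p at 0.0564 for Sfrp2, against 2.23% of all tested genes. The summed matrix markers in the 2 Saline tumours that remain were the lowest of all 6, as were 7 of the 8 markers singly. Pdgfra, a receptor gene of fibroblasts, was the exception, with 201, 284 and 488 in TTFM replicates 1 to 3, against 292, 279 and 179 in Saline replicates 1 to 3. The part of these markers in the values was not tested.

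No other gene of the pathway lists was past the adjusted test. Of a list of 61 further components, 17 were in the table and tested, with a median log2 fold change of -0.06 (6 positive, 11 negative), against -0.0014 over all genes. Skp1a, a subunit of the ubiquitin ligase that takes up beta-catenin, had 1162, 907 and 948 in TTFM replicates 1 to 3, against 868, 533 and 581 in Saline replicates 1 to 3. Every TTFM tumour lay above every Saline tumour (log2 fold change 0.61, SE 0.25; edgeR unadjusted p = 0.0415, adjusted p = 0.743). Skp1a was the only one of the 17 under 0.05 before adjustment, against 6.06% of all tested genes. It was also the only one whose groups did not overlap, against 8.29% of all tested genes. The phosphatase subunit genes Ppp2r1a and Ppp2cb stood at 0.20 (SE 0.22) and -0.42 (SE 0.23), and the cullin gene Cul1 at -0.12 (SE 0.21).

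Of 20 known canonical target genes outside the set, 10 were in the table and 9 were tested, with a median of 0.12 (6 positive, 3 negative). In edgeR's test 0 were under an unadjusted p of 0.05, against 6.06% of all tested genes. Ccnd1, which encodes cyclin D1, had 4731, 5507 and 2412 in TTFM replicates 1 to 3, against 3245, 4125 and 2183 in Saline replicates 1 to 3. TTFM replicates 1 and 2 were highest, but TTFM replicate 3 lay near the lowest Saline tumour (log2 fold change 0.41, SE 0.38). Myc, the growth-promoting transcription factor gene, had 1329, 1052 and 1253 in TTFM replicates 1 to 3, against 818, 786 and 1274 in Saline replicates 1 to 3, where Saline replicate 3 lay among the TTFM values (log2 fold change 0.34, SE 0.25). Id2 and Jun stood at 0.12 (SE 0.34) and 0.20 (SE 0.21). The 3 negative values were those of Bmp4 at -1.15 (SE 0.63), Fosl1 at -0.59 (SE 0.35) and Sox9 at -0.11 (SE 0.20). Those of Bmp4 and Fosl1 were larger in size than any positive one. These genes answer to many pathways besides WNT.

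Of 37 genes of the non-canonical branches, 19 were in the table and 17 were tested, with a median of -0.064 (7 positive, 10 negative). Nfatc1, a calcium-dependent transcription factor gene, had 111, 115 and 123 in TTFM replicates 1 to 3, against 165, 151 and 239.6 in Saline replicates 1 to 3. The groups did not overlap (log2 fold change -0.67, SE 0.24; edgeR unadjusted p = 0.0247, adjusted p = 0.662), and it was the only one of the 17 under 0.05 before adjustment. Groups also did not overlap for the kinase genes Mapk8 (JNK1), at -0.43 (SE 0.20), and Prkca, at 0.40 (SE 0.24). With Nfatc1, 2 of the 17 did not overlap with TTFM lower and 1 with TTFM higher, against 4.31% and 3.99% of all tested genes. An unadjusted p under 0.05 in edgeR's test held for 6.06% of all tested genes. The GTPase gene Rac1 stood at 0.015 (SE 0.20), and the calcineurin subunit genes Ppp3r1 and Ppp3ca at -0.064 (SE 0.18) and -0.25 (SE 0.29).

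**Figure D5:**
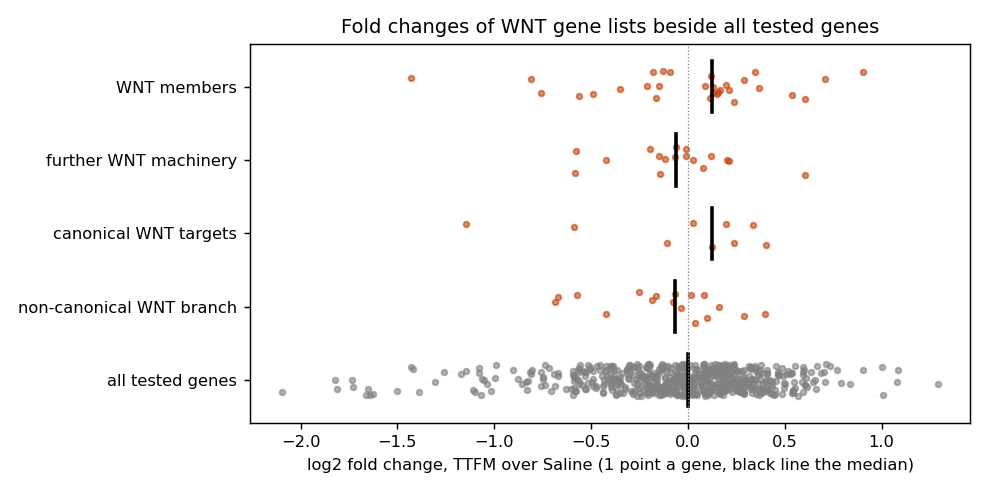
Log2 fold change, TTFM over Saline, of each tested gene in the WNT set (30 genes), further WNT machinery (17), canonical targets (9) and the non-canonical branch (17), above all 627 tested genes, with the median of each as a black line. All 5 medians lie between -0.064 and 0.12.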

How the data were processed

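The authors deposited 1 table of 750 genes by 6 samples, and its deposited values, all whole numbers, were taken as counts that had not been normalized. The sources used here do not state the platform, the counting steps or any normalization. The lowest value is 1 in every sample, so zeros may have been raised to 1, and no background was subtracted here. The 627 genes whose mean count reached 10 were tested with edgeR 4.0.16 (TMM scaling, estimateDisp, glmQLFit, glmQLFTest) in R 4.3.3, TTFM against Saline, with Benjamini-Hochberg adjustment over all tested genes and a threshold of 0.05. The fit was tested on simulated data. Normalized counts are counts over each sample's effective library size (total times TMM factor), rescaled to the mean effective size. The SE was taken as the absolute log2 fold change over the root of F. Counts of different genes were set against each other only to place them in the measuring range, with Uty as a mark of its bottom.

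The WNT set and the gene lists were chosen with earlier results of these data known. Full values are given for genes whose mean count reached 50, with groups that do not overlap or with an unadjusted p under 0.05. Of other lists, genes with an unadjusted p under 0.05 and the 4 of highest mean count are named, except 1 that is not reported here. Other settings were 3 scalings, 2 filters, a floor of 20, DESeq2 1.42.0, limma 3.58.1 with trend (prior count 1), the replicate number as a block, and each sample left out in turn. Deviations from the group means correlated at -0.23, 0.44 and 0.26 for replicates 1, 2 and 3. Saline replicates 2 and 3 correlated best with their own number, and Saline replicate 1 with TTFM replicate 3 (0.39). The labels state no pairing, and the numbers were not taken to pair the samples in the main fit. All 39 symbols were current in RefSeq.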

Additional observations from a re-analysis of the deposited data

How the results depend on the processing

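No WNT pathway gene passed the adjusted threshold in any of the 9 other settings or with any 1 tumour left out, where the smallest adjusted p was 0.0564 (Sfrp2, without Saline replicate 2). Over all genes the count past the threshold was 0. DESeq2 called 1, and fits that dropped a tumour called 0 to 14, with 14 when Saline replicate 2 was dropped. With 1 tumour left out, the median log2 fold change of the WNT set ran from 0.024 to 0.15, that of the further machinery from -0.19 to 0.077, that of the non-canonical list from -0.086 to 0.025 and that of the canonical targets from -0.026 to 0.20. The target median of 0.12 was 0.23 with no filter, where 10 genes were tested, 0.011 with limma and 0.0068 with the replicate block, and the cause of the last 2 was not tested. With the replicate block, Wnt10b stood at -0.20, against 0.15 without it, and 0 WNT pathway genes passed. At an unadjusted p under 0.05 in that edgeR fit, Nkd1 remained, Fzd8 did not, and Wnt2b was added on the higher side (log2 fold change 1.01, edgeR adjusted p = 0.662). That is 1 of the 30 lower and 1 higher, against 6.54% of all tested genes in either direction. No same-numbered pair of samples is known to be related, and Saline replicate 1 did not correlate best with its own number.

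With values under 20 raised to 20, Dkk1, Fzd8, Wnt2 and Wnt6 each stood at 0.040. All their counts lie under 20 and became 20, so this value comes from the scaling alone and says nothing of their direction. Among the other settings that keep all tumours, signs turned in 3 values. With limma, Sfrp4 stood at -0.058 and Wnt10b at -0.45. With 1 tumour left out, Axin1 ran from -0.44 to 0.079, Axin2 ran from -0.49 to 0.42, Ctnnb1 ran from -0.31 to 0.031, Dkk4 ran from -0.037 to 0.27, Fzd2 ran from -0.039 to 0.31, Lef1 ran from -0.12 to 0.38, Rnf43 ran from -0.44 to 0.41, Sfrp4 ran from -0.67 to 0.58, Wnt10b ran from -1.02 to 0.68, Wnt11 ran from -0.17 to 0.85, Wnt2 ran from -0.49 to 0.18, Wnt5a ran from -0.089 to 1.21, Wnt5b ran from -0.40 to 0.16 and Wnt7a ran from -0.10 to 0.41. A mean count filter of 20 left 16 of the WNT pathway genes, and Nkd1, Fzd8 and Dkk1 were not among them. Low counts limit what can be said of the 23 genes with a mean under 20.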
